A study of Mus musculus with 10 samples.

Results

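The core pluripotency genes are 10 genes whose transcripts mark undifferentiated embryonic stem (ES) cells and the early epiblast: Pou5f1, Nanog, Sox2, Zfp42, Klf2, Klf4, Esrrb, Dppa5a, Utf1 and Dppa4. They were chosen by symbol, and each of the 10 had 1 row among the 21868 genes of the count table. All 10 passed the filter on low counts, which kept 16785 genes. The RNA came from mouse cells sorted for Flk1, the surface receptor encoded by Kdr, from embryoid bodies grown in suspension without LIF (leukemia inhibitory factor, the cytokine that holds mouse ES cells undifferentiated). The sorted cells are labelled as equivalents of the hemangioblast, a common progenitor of blood and endothelium. One genotype was Ldb1+/+ (WT) and the other Ldb1-/- (KO), which lacks the adaptor protein Ldb1, with 4 libraries each. The sources used here do not give the embryoid body day of these RNA libraries, the deleted exons or the number of ES cell lines or clones behind each genotype, so loss of Ldb1 and any other difference between the lines cannot be told apart.

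In mouse ES cells the factors Pou5f1 (Oct4), Sox2 and Nanog bind together at many enhancers, including those of their own genes, and keep the undifferentiated state. Esrrb, Klf2 and Klf4 extend this circuit and, with Zfp42 (Rex1) and Dppa5a, mark the naive state of the early blastocyst; Pou5f1 and Utf1 stay on in the later, primed epiblast. As cells enter the primitive streak and form mesoderm, from which Flk1+ cells arise, the naive factors are lost early, while Nanog and Pou5f1 persist for a while in the posterior epiblast.

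The Oct4 and Sox2 proteins are known to bind side by side on an octamer-like and a Sox-like element, so the promoters of the members were searched for these letters. RefSeq promoter windows of build GRCm38.p6, each from 250 bases before to 50 bases after a start site, were found for 8 of the 10 members (11 windows); Dppa5a and Dppa4 had no entry. The octamer core TTTGCAT, on either strand, occurred in windows of 3 members (Nanog, Zfp42 and Sox2). These were 4 of the 11 member windows, 2 of them overlapping windows of Nanog, against 4.63% of all 32851 windows. For each of these 3 members 1 window is shown because it carries the octamer letters: capitals mark the octamer core and, in Nanog, also the Sox core ACAATG. Each is printed 5′ to 3′ on the strand of its gene, and in Sox2 the octamer core lies on the opposite strand, so that it reads ATGCAAA.

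Nanog, chr6:122707315-122707614, plus strand: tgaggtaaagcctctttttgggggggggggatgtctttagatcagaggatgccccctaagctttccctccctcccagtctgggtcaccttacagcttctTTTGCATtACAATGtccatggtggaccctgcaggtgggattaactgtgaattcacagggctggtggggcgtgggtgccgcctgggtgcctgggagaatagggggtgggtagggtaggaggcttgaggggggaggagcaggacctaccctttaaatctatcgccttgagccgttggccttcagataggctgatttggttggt

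Zfp42, chr8:43306960-43307259, minus strand: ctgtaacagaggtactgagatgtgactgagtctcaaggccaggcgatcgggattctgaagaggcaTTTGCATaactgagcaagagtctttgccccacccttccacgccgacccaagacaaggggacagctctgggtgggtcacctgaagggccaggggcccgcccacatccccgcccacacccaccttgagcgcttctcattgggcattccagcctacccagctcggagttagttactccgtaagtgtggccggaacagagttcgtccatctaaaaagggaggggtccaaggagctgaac

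Sox2, chr3:34649745-34650044, plus strand: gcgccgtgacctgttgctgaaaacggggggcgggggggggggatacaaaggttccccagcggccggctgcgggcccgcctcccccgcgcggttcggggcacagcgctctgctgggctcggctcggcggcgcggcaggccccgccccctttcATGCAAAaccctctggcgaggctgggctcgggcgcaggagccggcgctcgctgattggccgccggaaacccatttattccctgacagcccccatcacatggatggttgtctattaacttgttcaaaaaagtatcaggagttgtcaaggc

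In the Nanog window the octamer core begins 151 bases before the start site and the Sox core follows after 1 spacer base. That arrangement occurred in 2 of the 32851 windows (0.00609%), both of them overlapping windows of Nanog. The Zfp42 match lies 185 bases and the Sox2 match 99 bases before the start site. The Sox core, counted by itself, occurred in windows of 3 members (Nanog, Esrrb and Pou5f1). These were 4 of the 11 member windows, both Nanog windows included, against 12.6% of all windows. The letters CCACCC, bound by Klf proteins, occurred in 7 of the 11 member windows (5 members) and in 31.5% of all windows. AAGGTCA, an Esrrb-type element, occurred in 0 of the 11 member windows and in 4.72% of all windows. A match is a description of letters, not evidence of binding.

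Libraries 1 and 2 of each genotype, and libraries 3 and 4, differed by little more than sampling noise, and were summed to samples A and B, so n = 2 per genotype; nothing says whether A and B are separate cultures, and p-values measure only the spread between them, which may be technical. Total counts were 22674679 to 26775787 per sample. Levels are given as CPM, counts per 1000000 reads, after TMM scaling, which sets samples to a common scale. Ldb1 itself was counted at 105 CPM in WT A, 113 in WT B, 96.1 in KO A and 80.1 in KO B; reads summed over the whole gene do not check a deletion of unstated extent. Kdr, which encodes the sort marker, stood at 439.5, 605, 236 and 78.6 CPM in WT A, WT B, KO A and KO B, so KO B held the least of this transcript. The sort was on the surface protein, which these counts do not measure. Itga2b, the platelet and early blood integrin CD41, stood at 53.2 and 56.8 CPM in the WT samples, against 3.46 and 2.65 in the KO samples (edgeR adjusted p = 0.0102).

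The 10 genes were highest in WT A and, except for Klf4 and for a near tie of Nanog with KO A, lowest in WT B, with both KO samples in between. Their reads made up 0.212% of all counts in WT A, 0.0481% in WT B, 0.0974% in KO A and 0.117% in KO B. Within a sample, the 2 libraries of a gene differed by 1.00- to 1.17-fold (median 1.03-fold over 40 pairs), so the distance between WT A and WT B did not rest on a particular library. It remains a single difference between the WT samples. In such bulk samples, fewer cells that express a gene and less RNA per cell cannot be told apart.

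**Figure D1:**
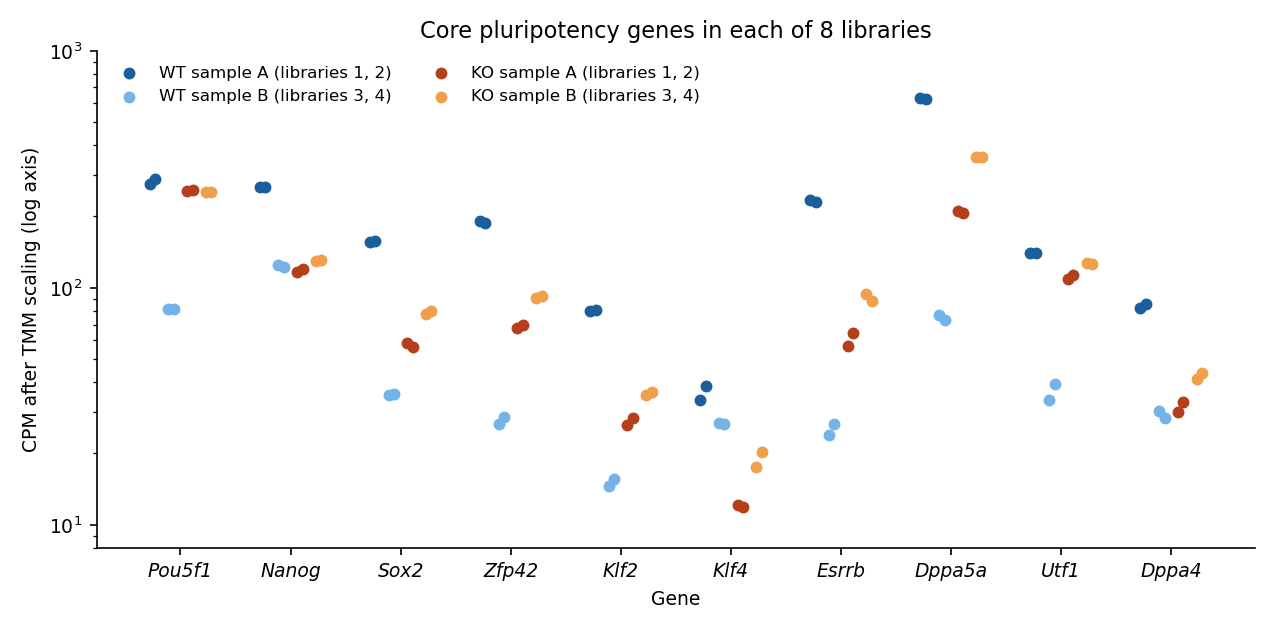
Level of each core pluripotency gene (CPM after TMM, log axis) in each of the 8 libraries, 1 point per library, coloured by genotype and sample. The points of a sample nearly coincide, and WT A lies above WT B for every gene; for Klf4 alone both KO samples lie below both WT samples.

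Of the central factors, Pou5f1 (ENSMUSG00000024406, chromosome 17) was counted at 281 CPM in WT A, 81.3 in WT B, 257 in KO A and 253 in KO B. Both KO samples were thus close to WT A and far above WT B, and differed from each other by 1.02-fold (95% counting interval 0.981 to 1.05). Sox2 (ENSMUSG00000074637, chromosome 3), the partner of Oct4 on composite elements, had 157, 35.6, 57.4 and 78.6 CPM in the same order. Nanog (ENSMUSG00000012396, chromosome 6), a homeodomain factor, had 266, 124, 118 and 131 CPM. For Nanog, WT B and both KO samples formed a narrow band well below WT A, whereas the KO samples of Pou5f1 lay beside WT A.

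The naive factors did not all stand alike in the WT samples. Esrrb (ENSMUSG00000021255, chromosome 12), an orphan nuclear receptor, had 232 CPM in WT A, 25.2 in WT B, 60.8 in KO A and 91.1 in KO B. Zfp42 (ENSMUSG00000051176, chromosome 8), a zinc finger protein used as a marker of undifferentiated cells, had 189, 27.5, 68.7 and 91.8 CPM. Klf2 (ENSMUSG00000055148, chromosome 8) had 80.3, 15.1, 27.3 and 35.9 CPM. In all 3 genes the order was WT A, KO B, KO A, WT B. Klf4 (ENSMUSG00000003032, chromosome 4), a Krüppel-like factor related to Klf2, differed from them: it had 35.98 CPM in WT A, 26.9 in WT B, 12.01 in KO A and 18.9 in KO B, so that the genotypes did not overlap.

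The other members showed the same order as Esrrb. Dppa5a (ENSMUSG00000060461, chromosome 9), an RNA-binding protein of pluripotent cells, had 629.96 CPM in WT A, 75.0 in WT B, 209 in KO A and 356 in KO B. Utf1 (ENSMUSG00000047751, chromosome 7), a chromatin-bound protein of ES cells and epiblast, had 139.95, 36.5, 111 and 126 CPM. Dppa4 (ENSMUSG00000058550, chromosome 16), a nuclear protein that acts with Dppa2, had 83.7, 29.2, 31.6 and 42.5 CPM. Like Pou5f1, Utf1 in both KO samples lay near WT A, whereas Dppa4 in KO lay near WT B.

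Set against WT A, WT B was at least 2-fold lower for 9 of the 10 members, and for 5.73% of all genes tested. The median of the members' log2 differences was -2.04, against -0.002 over all genes. With 1 sample on each side there is no test of this difference, and the intervals that follow cover counting error only. Esrrb was 9.19-fold lower in WT B (95% interval 8.48 to 9.98), Dppa5a 8.40-fold (8.01 to 8.80) and Zfp42 6.88-fold (6.36 to 7.45). The difference was smaller for Pou5f1, 3.45-fold (3.29 to 3.63), for Nanog, 2.16-fold (2.07 to 2.25), and for Klf4, 1.34-fold (1.21 to 1.48), the member that did not reach 2-fold. Esrrb thus differed most between the WT samples, and Klf4 least.

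The KO samples differed far less from each other. None of the 10 members was at least 2-fold higher in KO B than in KO A, against 1.39% of all genes, and 0 were 2-fold lower. The log2 differences ran from -0.02 for Pou5f1 to 0.77 for Dppa5a, with a median of 0.42 against 0.03 over all genes. In 9 of the 10 the value was above 0, all but Pou5f1, while the Kdr level of KO B was below that of KO A.

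**Figure D2:**
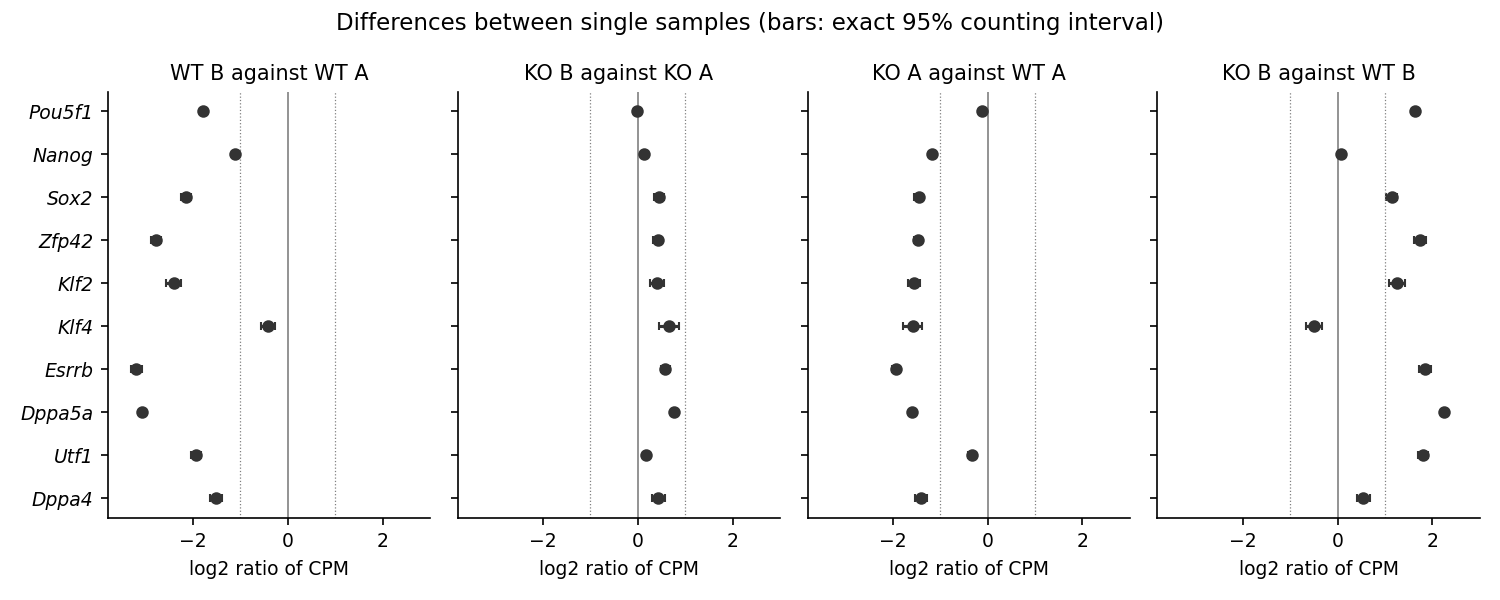
Log2 ratio of CPM between single samples for each gene, with exact 95% counting intervals as bars and dotted lines at a 2-fold difference. WT B against WT A lies left of 0 for all 10 genes, KO B against KO A lies near 0, and KO against WT lies mostly left of 0 for A and right of 0 for B.

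Over all 4 samples, KO against WT asked whether Flk1+ cells without Ldb1 hold other levels of these genes. None of the 10 members passed the edgeR quasi-likelihood test at an adjusted p of 0.05, as against 0.185% of all genes (31 of 16785), so 0 of 10 is near what the share over all genes would give. At an unadjusted p under 0.05 there was 1 member, Klf4, which was lower in KO, against 7.86% of all genes lower and 7.61% higher at that threshold; limma-voom called 0. The log2 fold changes (KO over WT) were below 0 for 8 members and above 0 for Pou5f1 and Utf1, with a median of -0.55 against -0.009 over all genes. In 8 of the 10 genes both KO samples lay within the range of the WT samples. The share of all genes with this arrangement is not given, so the count only describes the members.

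The estimates carried large errors. For Pou5f1 the mean was 181 ± 141 CPM (SD, n = 2) over the WT samples, against 255 ± 2.98 over the KO samples, a log2 fold change of 0.495 (SE 0.61, edgeR adjusted p = 0.806). Esrrb averaged 129 ± 146 CPM against 75.9 ± 21.4, a log2 fold change of -0.76 (SE 1.05, adjusted p = 0.833 by edgeR). The SD over the WT samples was thus larger than their mean. Nanog averaged 195 ± 101 CPM against 124 ± 8.63, a log2 fold change of -0.65 (SE 0.39, edgeR adjusted p = 0.529). For the remaining members except Klf4, the SE ran from 0.55 for Dppa4 to 1.03 for Dppa5a, and the edgeR adjusted p from 0.715 to 0.938.

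Klf4 was the member with the smallest error and the lowest p. Its mean was 31.4 ± 6.44 CPM over the WT samples (SD, n = 2) against 15.5 ± 4.89 over the KO samples, a log2 fold change of -1.02 (SE 0.28, unadjusted p = 0.0133, edgeR adjusted p = 0.183). DESeq2 called Klf4 lower in KO (log2 fold change -1.03, adjusted p = 0.0245) and 0 other members; it called 3.53% of all genes lower. Klf4 was also the 1 member of 10 with both KO samples below both WT samples, an arrangement found in 22.4% of all genes tested. For 2 against 2 samples the smallest exact permutation p is 0.333.

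The direction of the comparison depended on the WT sample used. Against WT B alone, 7 of the 10 members were called higher in KO by edgeR, against 4.46% of all genes. Against WT A alone, 7 of the 10 were called lower, against 5.75% of all genes. In each of these fits the lone WT sample is assumed to vary like the KO samples. Sox2, Zfp42, Klf2 and Esrrb were called in both fits, in opposite directions. Pou5f1 and Utf1 were higher than WT B (log2 fold changes 1.64, SE 0.20, and 1.70, SE 0.20; edgeR adjusted p = 0.0001 and 5.28e-05), and did not pass against WT A (-0.13 and -0.23; adjusted p = 0.782 and 0.53).

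Nanog and Dppa4 gave the opposite picture. Nanog stood below WT A (log2 fold change -1.09), while against WT B its estimate was 0.003. Dppa4 stood below WT A (-1.17) and nearer to WT B (0.34). Klf4 had a negative estimate in both fits, -1.21 against WT A and -0.80 against WT B. Dppa5a had an estimate of 1.90 against WT B and -1.15 against WT A.

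**Figure D3:**
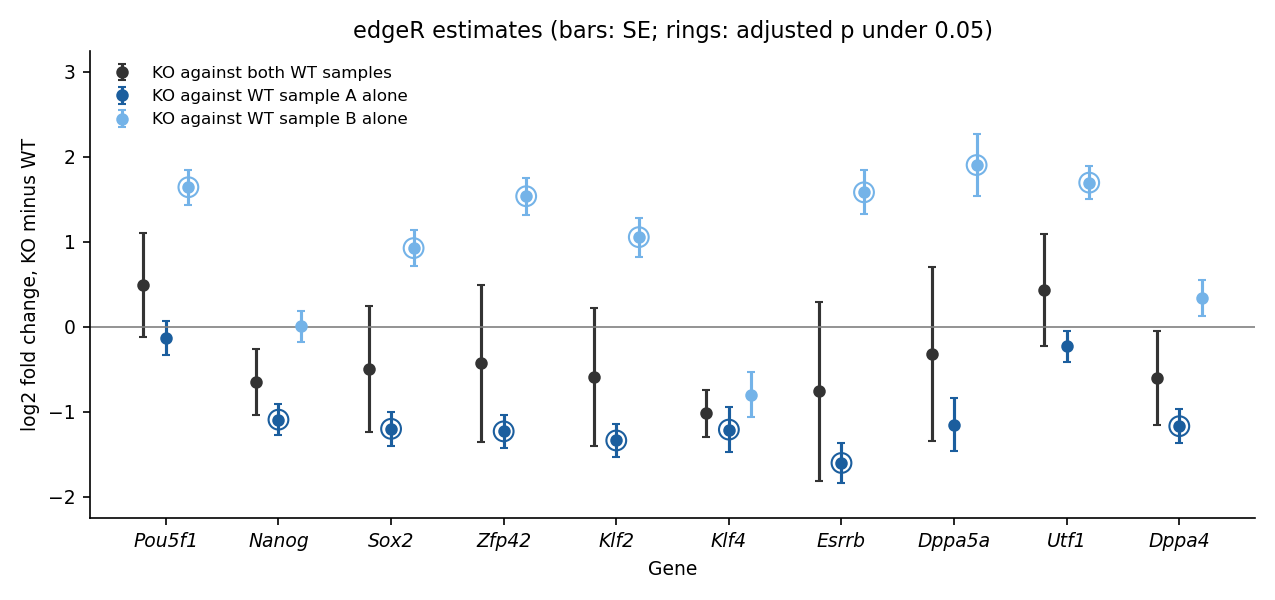
edgeR log2 fold change of KO over WT for each gene, with its SE as a bar, against both WT samples, WT A alone or WT B alone; rings mark an adjusted p under 0.05. Estimates against WT B lie above 0 except for Klf4 and the near-zero Nanog value, and estimates against WT A lie below 0 for all 10 genes. No estimate against both WT samples is ringed. With a lone WT sample the SE and rings rest on the spread of the KO samples alone, so those rings are not read as calls.

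Taken sample by sample, KO A was at least 2-fold lower than WT A for 8 members, all but Pou5f1 and Utf1, against 6.09% of all genes. KO B was at least 2-fold higher than WT B for 7 members, all but Nanog, Klf4 and Dppa4, against 6.26% of all genes. The labels A and B stand for the library numbers, and nothing says whether a KO and a WT sample of the same letter belong together. Esrrb, for example, was 3.81-fold lower in KO A than in WT A (95% counting interval 3.60 to 4.05) and 3.61-fold higher in KO B than in WT B (3.31 to 3.94). Dppa5a was 3.02-fold lower (2.92 to 3.12) and 4.74-fold higher (4.52 to 4.98) in the same comparisons.

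To compare the composition of the network rather than its amount, the reads of each other member were divided by the Pou5f1 reads of the same sample. Per Pou5f1 read there were 0.949 Nanog reads in WT A, 1.52 in WT B, 0.460 in KO A and 0.516 in KO B. Klf4 gave 0.128, 0.331, 0.0467 and 0.0748, and Dppa4 gave 0.298, 0.359, 0.123 and 0.168 reads per Pou5f1 read. Nanog, Klf4 and Dppa4 were thus higher relative to Pou5f1 in WT B than in WT A, and lower in both KO samples than in either.

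Sox2, at 0.560 and 0.438 in WT and 0.223 and 0.311 in KO, and Klf2, at 0.286 and 0.186 in WT and 0.106 and 0.142 in KO, were also lower in both KO samples. For these 5 of 9 genes both KO samples lay below both WT samples; the same held for 26.8% of all genes tested when divided by Pou5f1. Utf1 was nearly constant relative to Pou5f1, at 0.499, 0.449, 0.433 and 0.5. For Esrrb, Zfp42 and Dppa5a the genotypes overlapped, with WT A highest: Esrrb stood at 0.826 in WT A, 0.310 in WT B, 0.236 in KO A and 0.360 in KO B.

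**Figure D4:**
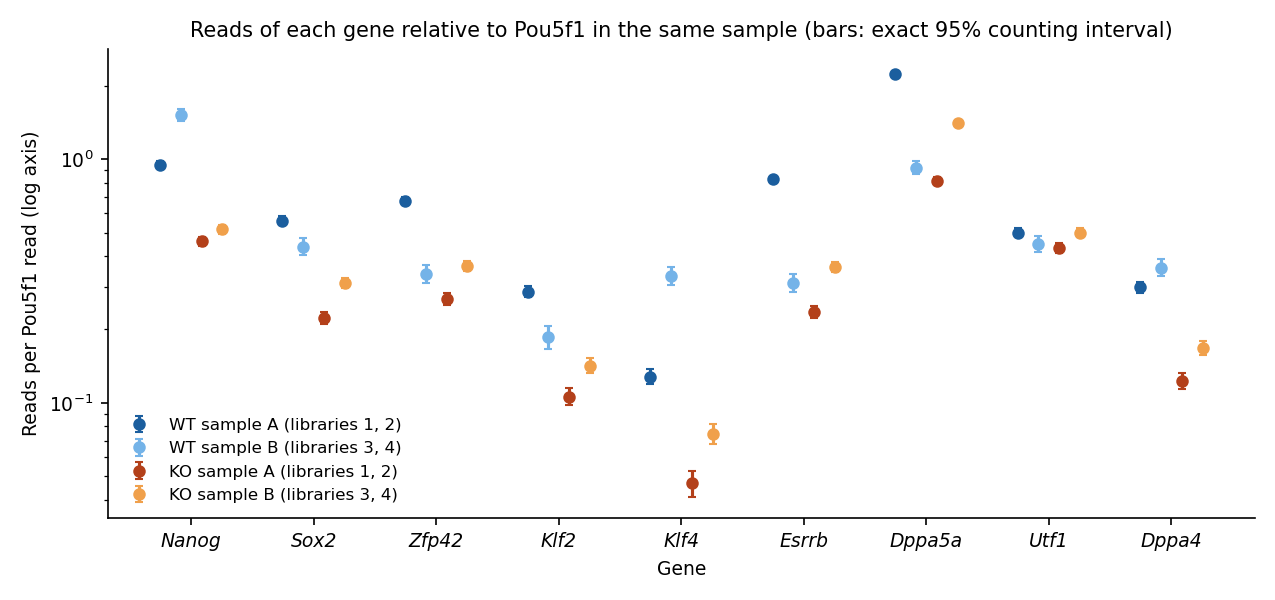
Reads of each other member per Pou5f1 read in the same sample (log axis), 1 point per sample, with exact 95% counting intervals as bars. Nanog, Sox2, Klf2, Klf4 and Dppa4 have both KO samples below both WT samples, and Utf1 has all 4 samples between 0.433 and 0.5.

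Divided by the deposited transcript length, Dppa5a had the highest level, 533.5 CPM per kb as the mean of 4 samples, followed by Pou5f1 (166), Utf1 (87.2), Nanog (73.1), Zfp42 (51.5), Sox2 (33.4), Dppa4 (30.5), Esrrb (23.8), Klf2 (21.8) and Klf4 (7.72 CPM per kb). Dppa5a exceeded Pou5f1, and Pou5f1 exceeded Utf1, in 4 of 4 samples. The order of Utf1 and Nanog held in 2 of 4 samples, as did that of Esrrb and Klf2, so these neighbours were not separated. The order of Sox2 over Dppa4, and of Klf2 over Klf4, held in 3 of 4. Esrrb was eighth in WT A, at 54.0 CPM per kb, and last in WT B, at 5.87 CPM per kb; Klf4 and Dppa4 also shifted by 2 places in WT B, upward.

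Other genes of the pluripotency network showed a similar arrangement. Of 23 tested, 0 passed the edgeR test in either direction in KO against WT. At an unadjusted p under 0.05 with edgeR, 3 were lower, against 7.86% of all genes. DESeq2 called 3 lower, Tbx3, Mycn and Tdgf1, against 3.53% of all genes, and limma-voom 0. The median log2 fold change was -0.45. Between the WT samples, 13 were at least 2-fold lower and 1 at least 2-fold higher in WT B than in WT A, against 5.73% and 3.68% of all genes. The median log2 difference was -1.49. The most abundant of them were not among the low ones: Rif1, a chromosome-bound factor, had 353, 213, 320 and 233 CPM in WT A, WT B, KO A and KO B, and Lin28a, an RNA-binding protein that blocks let-7 maturation, had 246, 410, 435 and 364 CPM. Of 3 genes named after their values were seen, the growth factor Fgf4 had 72.0, 8.11, 26.2 and 31.9 CPM, and Tdh, a threonine dehydrogenase of mouse ES cells, had 159, 17.7, 38.5 and 54.7 CPM. Tbx3 was the gene on the list that was 2-fold higher in WT B, at 19.97, 55.1, 14.6 and 12.8 CPM.

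Markers of the later epiblast were nearer to each other in the WT samples, and those of germ cells were apart. Of 13 formative and primed epiblast genes tested, 2 (Foxd3 and Etv5) were at least 2-fold lower and 1 (Lef1) at least 2-fold higher in WT B than in WT A, with a median log2 difference of -0.11. In KO against WT edgeR called 0 of them. At an unadjusted p under 0.05 with edgeR, 1 was lower and 6 higher, against 7.86% and 7.61% of all genes. DESeq2 called 3 higher, Cdh1, Nodal and Dnmt3a (566 of all 16785 genes were), and limma-voom 0. The median log2 fold change was 0.27. Cdh1, the epithelial cadherin, had 608, 396, 1058 and 1097 CPM (log2 fold change 1.10, SE 0.22, edgeR adjusted p = 0.123), and Dnmt3b, a DNA methyltransferase, had 193, 218, 333 and 163 CPM. Of 9 germ cell genes tested, 7 were at least 2-fold lower in WT B (median -2.06), against 5.73% of all genes. In KO against WT 0 of the 9 were called by edgeR, DESeq2 or limma-voom, nor did any reach an unadjusted p under 0.05 with edgeR. The germ cell RNA-binding protein gene Dazl had 62.2, 3.81, 5.53 and 5.97 CPM. Ifitm3, a membrane protein gene of germ and other cells and the most abundant on that list, did not share this order, at 74.3, 84.3, 84.8 and 104 CPM.

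Primitive streak and mesoderm markers stood the other way round. Of 16 primitive streak genes tested, 12 were at least 2-fold higher and 1 at least 2-fold lower in WT B than in WT A (median log2 difference 2.34), against 3.68% of all genes higher, and of 14 cardiac, paraxial and mesenchymal genes 12 were higher and 1 (Tcf15) lower (median 2.11). Eomes, a T-box factor of the streak, had 9.65, 116, 27.8 and 8.94 CPM, and Hand1, a factor of lateral mesoderm, had 9.90, 126, 6.87 and 6.36 CPM. Lefty2, a Nodal antagonist, was the streak gene that was lower in WT B, at 160.05, 12.3, 61.0 and 74.3 CPM. The summed level of the 16 streak genes was 214 CPM in WT A, 390.2 in WT B, 164 in KO A and 118 in KO B, and Msgn1, which was not tested, was at 0 in 3 samples. Lefty2 held most of the WT A and KO B sums; the other 15 genes summed to 54.0, 378, 103 and 43.7 CPM in WT A, WT B, KO A and KO B. The summed level of the 14 mesodermal genes was 97.9, 587, 167 and 342.5 CPM in the same order, most of the KO B sum being Col1a1. In KO against WT edgeR called 0 genes of either list, with median log2 fold changes of -1.11 and -1.25; at an unadjusted p under 0.05 there was 1 lower on the first list (Tbx6) and 1 higher on the second, which DESeq2 also called (Col3a1). WT B, low in the members, was thus high in streak and mesoderm transcripts; whether the 2 differences share a source was not tested.

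Of 12 blood and endothelial genes, 2 fell in KO by the edgeR test, Itga2b and Gfi1b, and 0 rose. At an unadjusted p under 0.05 with edgeR, 9 were lower (7.86% of all genes were) and 0 higher. DESeq2 called 6 lower and 0 higher, against 3.53% of all genes lower. The median log2 fold change was -1.39, and the median log2 difference between WT B and WT A was 0.16. Gfi1b, a repressor of early blood cells, had 6.79, 8.42, 0.302 and 0.312 CPM (adjusted p = 0.0476). Between the WT samples 1 gene of this list was at least 2-fold lower in WT B (Pecam1) and 1 at least 2-fold higher (Etv2). Pecam1, an endothelial adhesion gene, had 317, 131, 69.9 and 39.8 CPM in WT A, WT B, KO A and KO B (edgeR adjusted p = 0.215). Of 6 neuroectoderm genes tested, Nes, an intermediate filament gene of neural and other progenitors, rose in KO, with 111 and 109 CPM in the WT samples against 257 and 279 in the KO samples (log2 fold change 1.29, SE 0.125, edgeR adjusted p = 0.0493), and 0 fell. Ncam1, a neural cell adhesion gene, had 20.6, 35.7, 19.4 and 26.4 CPM, and Zic1, a zinc finger factor, had 5.08, 5.40, 5.83 and 4.99 CPM in WT A, WT B, KO A and KO B. Lifr, Nes, Itga2b and Gfi1b, which passed the edgeR test, were also called by DESeq2. Of the genes on the lists, limma-voom called Itga2b alone. Of 9 endoderm genes tested edgeR called 0 (1 lower and 1 higher at an unadjusted p under 0.05; DESeq2 0; median log2 fold change -1.01), with Dab2 at 44.6, 30.6, 53.2 and 60.7 CPM and Sox7 at 59.9, 43.9, 33.7 and 17.7 CPM in WT A, WT B, KO A and KO B. Of 7 trophoblast genes edgeR called 0 (median log2 fold change 0.22). At an unadjusted p under 0.05 with edgeR, 2 were higher, Krt8 and Krt18, against 7.61% of all genes. DESeq2 called both. Of these keratins of simple epithelia, Krt8 had 399, 596, 934 and 1284 CPM and Krt18 had 326, 465, 761 and 1083 CPM in WT A, WT B, KO A and KO B (log2 fold changes 1.16, SE 0.26, and 1.22, SE 0.26; edgeR adjusted p = 0.145 and 0.1302).

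**Figure D5:**
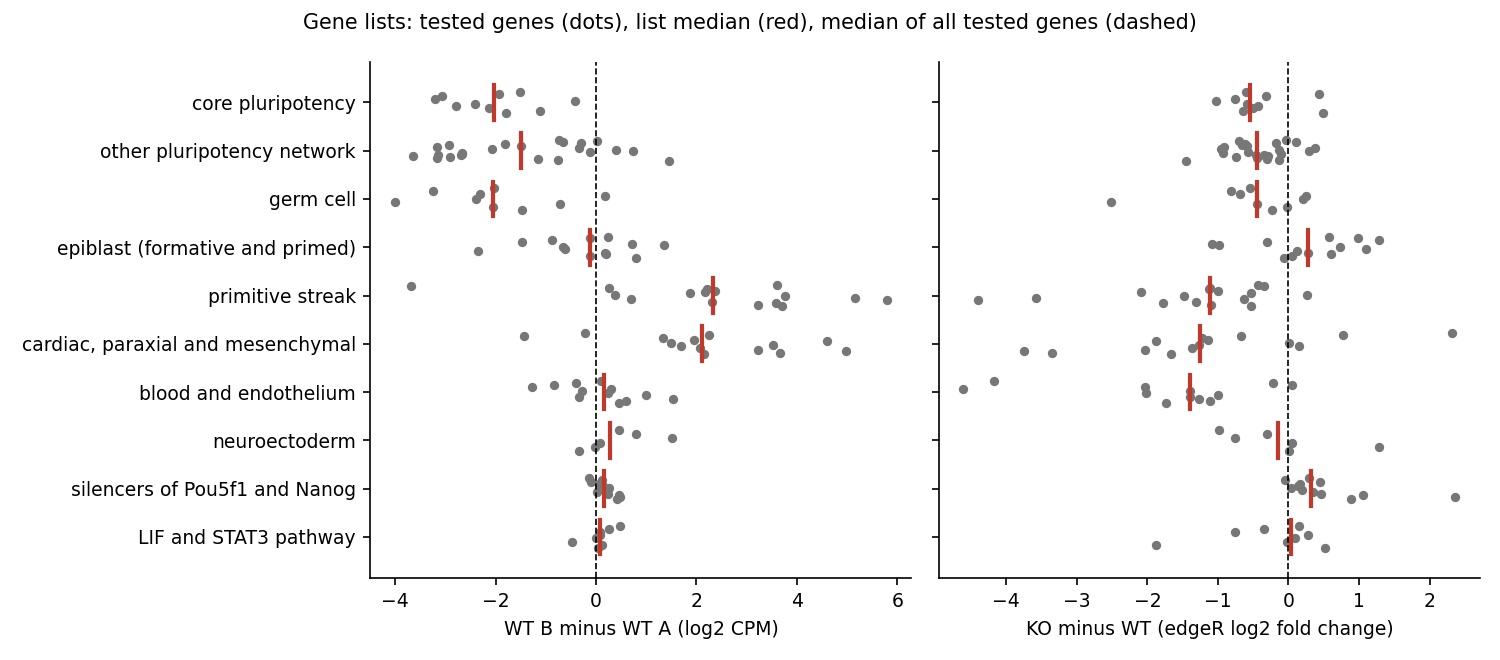
Each dot is a tested gene of a list, the red bar the list's median, and the dashed line the median of all genes tested; left, log2 CPM of WT B minus WT A, and right, the edgeR log2 fold change of KO over WT. On the left the core pluripotency, other network and germ cell medians lie near -2.04, -1.49 and -2.06, and those of the streak and mesoderm lists near 2.34 and 2.11.

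Genes upstream of the network were also read. Of 8 genes of the LIF and STAT3 pathway, which sustains Klf4 in mouse ES cells, edgeR called 1 lower in KO and 0 higher. Over all genes 0.185% were called in either direction. At an unadjusted p under 0.05 with edgeR, 2 were lower and 1 higher, against 7.86% and 7.61% of all genes, and limma-voom called 0. The gene called by edgeR was Lifr, the LIF receptor, at 49.8 and 53.8 CPM in the WT samples, against 15.7 and 12.5 in the KO samples (log2 fold change -1.88, SE 0.18, edgeR adjusted p = 0.0478). Stat3, the transcription factor at the end of the pathway, had 177 and 187 CPM in the WT samples, against 104 and 110.2 in the KO samples, and did not pass (log2 fold change -0.765, SE 0.12, edgeR adjusted p = 0.105; DESeq2 called it lower). Ptpn11, a phosphatase that relays receptor signals, had 136, 189, 183 and 177 CPM in WT A, WT B, KO A and KO B. None of the 8 differed 2-fold between WT A and WT B. Of 12 genes known to repress Pou5f1 or Nanog, edgeR called 0, limma-voom 0 and DESeq2 3 higher (Nr6a1, Nr2f2 and Hdac1); 6 were higher in KO at an unadjusted p under 0.05 with edgeR (7.61% of all genes were), and the median log2 fold change was 0.32. Nr6a1 (GCNF), a nuclear receptor that represses Pou5f1 and was named after its values were seen, had 103 and 137 CPM in the WT samples, against 214 and 228 in the KO samples (edgeR adjusted p = 0.115). Chd4, a chromatin remodeller and the most abundant on the list, had 686 CPM in WT A, 782 in WT B, 894 in KO A and 788 in KO B, so WT B and KO B were about equal. Kdm1a, a histone demethylase, had 233, 241, 259 and 269 CPM in the same order.

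Genes related to the members by family or by name were counted as well. Of 14 tested, among them other Klf, Esrr, Sox and Pou genes, 0 were called in KO against WT by edgeR, DESeq2 or limma-voom (1 higher at an unadjusted p under 0.05 with edgeR; median log2 fold change 0.06). Levels at least 2-fold lower in WT B than in WT A occurred in 2 of them, Dppa2 and Dppa3 (also on the network list), and the median log2 difference was -0.23. Klf6 had 180.02, 248.97, 235 and 270.04 CPM and Klf10 had 114, 123, 105 and 132 CPM in WT A, WT B, KO A and KO B.

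The members' median profile over the 4 samples, in log2 CPM centred on each gene's mean, was 1.06 in WT A, -1.20 in WT B, -0.29 in KO A and 0.21 in KO B. Sox2 lay nearest to it among the members, with a root-mean-square (RMS) difference of 0.116, and Klf4 farthest, at 0.845. Among 11305 other genes with a symbol and at least 5 CPM on average, the 8 nearest were Mreg (RMS 0.0974), Fabp3 (0.101), Zfp819 (0.111), Bnc2 (0.126), Calcoco2 (0.131), Rfx2 (0.135), Dnajc6 (0.138) and Tdrd12 (0.144). Fabp3, a fatty acid-binding protein gene, had 219, 39.7, 78.8 and 104 CPM, and Mreg, which encodes melanoregulin, had 67.2, 13.5, 24.45 and 40.3 CPM. Only 3 of the 11305 genes lay nearer to the profile than Sox2, while 5649 lay nearer than Klf4. The profile was made from the members themselves, Sox2 and Klf4 included, so a member's rank against other genes is partly built in. Likeness over 4 samples is a description.

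Some counts carry limits of their own. Zfp42 and Klf2 lie on chromosome 8, where the median log2 fold change of genes with a mean log2 CPM above 3 was 0.25. It was -0.47 on chromosome 11, and at most 0.0598 from 0 on the other autosomes and on X. With each chromosome's median removed, their log2 fold changes were -0.68 and -0.84, and 0 members were called. Sox2 lies within the gene Sox2ot, and Esrrb overlaps Gm40483, in the RefSeq gene table; neither has a row in the count table, and the strand setting of the counting is not stated. Pou5f1 and Nanog have processed pseudogenes, and the treatment of reads that map to more than 1 place is likewise not stated.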

How the data were processed

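Levels come from the authors' deposited raw counts, 1 table with a row per Ensembl gene and a column for each of 8 RNA libraries, per the file headers. The submitters' processing notes name genome build mm9 and DESeq; the sources used here do not give the aligner, counting tool, strand setting or annotation. Symbols were paired with 20362 of 21868 genes. The ChIP-seq peaks were not used here. The members and lists were chosen with earlier results of these data known.

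Libraries were compared in pairs by chi-square, averaged over genes with 20 or more reads; sampling noise alone gives 1. The 4 pairs summed here gave 1.06 to 1.10 and the other pairs within a genotype 12.8 to 28.5. Counts were filtered (filterByExpr), TMM-scaled and put to edgeR's (4.0.16) robust quasi-likelihood test in R 4.3.3, with Benjamini-Hochberg adjustment over 16785 genes and a threshold of 0.05; the script was tested on simulated data. The SE given for edgeR is the absolute log2 fold change divided by the square root of the test's F statistic. DESeq2 1.42.0 and limma 3.58.1 (voom) were alternatives. Single samples were compared as log2 CPM with a prior count of 2, with exact binomial 95% counting intervals.

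Besides the 10 members, each of 12 other lists gave up to 3 genes past the test and the 2 most abundant others, and the 8 genes nearest in pattern were named. Genes named outside this rule, after their values were seen, are those given beside a count of 5 or fewer and those marked in the text.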

Additional observations from a re-analysis of the deposited data

Results flagged for a closer look

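For 9 of the 10 core pluripotency genes, the KO samples differed from WT in opposite directions in the A and B libraries: KO A was below WT A, and KO B above WT B. The log2 difference of KO from WT in the B samples, less that in the A samples, was 1.76 for Pou5f1, 1.25 for Nanog, 2.59 for Sox2, 3.195 for Zfp42 and 2.795 for Klf2. It was 3.78 for Esrrb, 3.84 for Dppa5a, 2.12 for Utf1 and 1.95 for Dppa4, and for the median of the 10 members 2.895. With 1 sample on each side this difference was not tested. KO and WT samples were matched here by library number alone, which need not reflect a shared preparation. The share of all genes that differ in opposite directions is not given. Klf4 was the exception, with KO below WT in both. Most of each value comes from the distance between WT A and WT B, since the KO samples differed from each other by a log2 value of at most 0.77, in Dppa5a.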

How the results depend on the processing

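The median log2 differences between single samples kept their direction under other scalings, a prior count of 0.5 and with 1 library left out: WT B less WT A ran from -2.10 to -1.98, KO B less KO A from 0.33 to 0.45, KO A less WT A from -1.48 to -1.44 and KO B less WT B from 1.36 to 1.46. In KO against WT the count of members called lower was 0 with edgeR on the summed samples and 1 with DESeq2, Klf4. It was also 1, Klf4, in the edgeR fits of 8 libraries as separate replicates and of 8 libraries with a replicate block. Those fits count libraries of the same sample as replicates, so their p-values are too small. They called 1892 and 1635 of 15589 genes lower. Leaving out a library or a sample gave 0 to 7 members called lower and 0 to 7 called higher; the 7 came without WT B and without WT A, in that order, and leaving out 1 library or either KO sample gave 0.

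Over the fits that left out a library or sample, the log2 fold change ran from -0.133 to 1.64 for Pou5f1, -1.09 to 0.003 for Nanog, -1.20 to 0.926 for Sox2, -1.23 to 1.54 for Zfp42, -1.34 to 1.055 for Klf2, -1.60 to 1.58 for Esrrb, -1.15 to 1.90 for Dppa5a, -0.23 to 1.70 for Utf1, -1.17 to 0.337 for Dppa4 and -1.39 to -0.725 for Klf4. Zfp42 and Dppa5a changed sign, to 0.153 and 0.334 under limma-voom, 0.127 and 0.321 with a replicate block, and 0.099 and 0.304 with 8 libraries and a replicate block; the cause was not tested. Samples sharing a number did not deviate together (correlation -0.081 for A and B). With 2 samples per genotype this cannot decide whether samples of the same letter were prepared together. The replicate block took the genes called from 31 to 5. Over all genes DESeq2 called 593 lower and 566 higher, limma-voom called 3, the fit with no filter 151 and that with a 1 CPM filter 5. The members had from 278 reads in a sample (Klf4, KO A) to 14760 (Dppa5a, WT A).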
